A study of Arabidopsis thaliana with 2 samples.

Results

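Disease resistance protein genes were compared between shoots of wild-type Arabidopsis thaliana seedlings of the Col-0 accession and shoots of the bts-1 mutant. The genes were chosen by their description in the deposited table, taking every row that names disease resistance and leaving out rows that start with receptor-like protein. This gave 102 of 18617 rows. Both genotypes were grown on 1/2 MS (Murashige and Skoog) medium without sucrose, and each genotype is represented by 1 library of total RNA. The labels give neither the age of the seedlings, nor the nature of the bts-1 allele, nor how many plants went into a library. The mutated gene is BTS (BRUTUS), whose product, an iron-binding ubiquitin ligase, restrains the iron deficiency response. Since there is 1 library of each genotype, the differences given are between those libraries, with no test and no measure of the spread between plants.

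Most plant disease resistance genes encode intracellular receptors of the NLR type, in which a nucleotide-binding NB-ARC domain is followed by leucine-rich repeats (LRR). The receptors recognise pathogen effectors, or the damage effectors do to host proteins, and then trigger a local immune response that often ends in cell death. Those with a Toll/interleukin-1 receptor (TIR) domain at the amino terminus signal through EDS1 with PAD4 or SAG101 and through helper NLRs of the ADR1 and NRG1 families, while many with a coiled-coil (CC) domain act on their own or with NDR1. Many of the genes lie in tandem arrays or in head-to-head pairs. Transcript levels of the receptors are kept low in healthy plants because excess receptor triggers autoimmunity.

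Values are levels as deposited, read as log2(FPKM + 1), where FPKM counts fragments relative to the length of the transcript and the size of the library. A log2 ratio is the bts-1 level minus the Col-0 level. A gene counts as lower or higher where the ratio reaches -1 or 1, a 2-fold difference of FPKM + 1. Unless FPKM is named, 2-fold is used below in that sense. The FPKM itself differs by more than the ratio shows, above all in low genes. The values hold no counts, so the depth is unknown. BTS itself (AT3G18290) stood at 10.84 in Col-0 and 9.57 in bts-1, a log2 ratio of -1.27. After the rescaling described below these became 6.63, 5.38 and -1.25. The 5 shoot markers, among them RBCS1A, stood between 6.82 and 12.41 in both libraries, and 5 of 10 root markers had a row in the table, with log2 ratios between -0.57 and 0.56. Of these, PYK10 (AT3G09260), a chromosome 3 gene, was as high as shoot markers at 10.06 in Col-0 and 10.19 in bts-1, and the other 4 lay between 0.91 and 4.99. Levels on chromosome 3, where BTS lies, are uncertain. There the level depended on the exon length of the following gene, with a slope of -0.58 and a standard error of 0.03 on the log2 scale, and the slopes of the remaining chromosomes lay between -0.01 and 0.04. This touches the 14 resistance genes whose identifiers begin with AT3G. For some chromosome 3 genes, values rescaled by exon length are given beside the deposited ones.

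By their descriptions, 50 of the 102 genes belong to the TIR-NBS-LRR class, 5 to the TIR-NBS class, which lacks the repeats, and 1 is named as TIR class. A further 9 are CC-NBS-LRR genes. The other 37 comprise 8 named resistance proteins such as RPM1 and RPS2, 13 putative, probable or like proteins, 3 NB-ARC proteins, 10 dirigent-type genes, 2 genes of the EDR2 family and 1 LRR family gene. The domain annotation of the reference, which the description rule did not use, gives an NB-ARC domain to 88 of the 102 genes and a TIR domain to 55. The latter include RRS1, which its description does not class. The dirigent and EDR2 genes are not receptors: dirigent proteins guide the coupling of phenolic radicals in lignan synthesis, and EDR2 limits salicylic acid-dependent resistance to powdery mildew. The reference gives an NB-ARC domain to 168 genes, of which 111 have a row in the table.

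The 300 bases upstream of the annotated start are shown for 5 TIR genes that were at least 2-fold lower in bts-1, namely the 4 with the lowest ratios outside chromosome 3 and AT4G19520, whose neighbour AT4G19530 had a ratio above 0. They are printed 5′ to 3′ on the strand of the gene, from RefSeq's TAIR10.1 assembly. Capitals mark TTGACC or TTGACT, forms of the W-box bound by WRKY factors, and CGCGTT, which holds the CGCG core bound by calmodulin-binding CAMTA factors. Both strands were searched.
AT1G66090 (chr1:24601733-24602032, plus strand): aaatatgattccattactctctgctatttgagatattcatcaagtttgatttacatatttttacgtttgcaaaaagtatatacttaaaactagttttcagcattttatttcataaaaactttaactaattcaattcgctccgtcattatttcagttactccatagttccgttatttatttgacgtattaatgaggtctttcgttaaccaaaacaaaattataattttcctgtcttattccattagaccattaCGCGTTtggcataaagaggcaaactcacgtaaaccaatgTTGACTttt
AT5G58120 (chr5:23516956-23517255, plus strand): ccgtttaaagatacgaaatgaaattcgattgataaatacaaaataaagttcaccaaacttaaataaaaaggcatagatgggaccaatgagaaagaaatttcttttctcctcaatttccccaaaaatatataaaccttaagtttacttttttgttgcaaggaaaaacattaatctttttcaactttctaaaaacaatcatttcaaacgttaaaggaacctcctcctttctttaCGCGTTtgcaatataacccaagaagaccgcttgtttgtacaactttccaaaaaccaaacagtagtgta
AT5G41740 (chr5:16688326-16688625, plus strand): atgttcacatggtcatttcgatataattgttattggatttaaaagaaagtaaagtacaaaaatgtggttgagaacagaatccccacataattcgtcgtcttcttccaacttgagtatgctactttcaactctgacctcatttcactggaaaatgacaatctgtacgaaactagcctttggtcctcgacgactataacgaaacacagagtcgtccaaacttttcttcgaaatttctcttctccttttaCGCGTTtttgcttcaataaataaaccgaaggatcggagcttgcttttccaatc
AT5G41750 (chr5:16693532-16693831, plus strand): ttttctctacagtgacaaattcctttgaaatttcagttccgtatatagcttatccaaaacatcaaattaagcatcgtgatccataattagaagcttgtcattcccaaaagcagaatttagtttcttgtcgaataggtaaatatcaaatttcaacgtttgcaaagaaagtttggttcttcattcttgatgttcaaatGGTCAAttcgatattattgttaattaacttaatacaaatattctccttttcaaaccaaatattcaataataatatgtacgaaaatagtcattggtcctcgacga
AT4G19520 (chr4:10647281-10647580, minus strand): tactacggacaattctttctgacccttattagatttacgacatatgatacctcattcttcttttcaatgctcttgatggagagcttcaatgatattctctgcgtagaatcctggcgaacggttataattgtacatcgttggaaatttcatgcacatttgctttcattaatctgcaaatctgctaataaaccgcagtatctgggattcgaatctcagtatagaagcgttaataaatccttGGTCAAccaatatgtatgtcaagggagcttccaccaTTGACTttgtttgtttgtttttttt

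CGCGTT stood on the plus strand of 3 of these windows, beginning 48 bases before the start in AT1G66090, 68 in AT5G58120 and 53 in AT5G41740. This motif was searched for after these windows, chosen for their low ratios, had been read. With those 3 genes included, it occurred in 12 of the 102 resistance genes (11.8%), in 9 of 56 TIR class genes (16.1%), in 0 of 9 CC-NBS-LRR genes and in 3.27% of the 17927 protein-coding genes of the table. Apart from the 3 genes that prompted the search, the 9 members with it had a median log2 ratio of -0.255. Their ratios ran from -0.83 to 0.95, so that none reached -1 or 1. The 90 members without CGCGTT had a median of -0.02. AT4G11190, a dirigent gene described further on, also carries CGCGTT and had the highest ratio of all 102 genes. The W-box forms occurred in 48 of 102 resistance genes (47.1%) and in 31.4% of all windows, and the medians with and without them were -0.02 and -0.10. In AT4G19520 they began 61 and 25 bases before the start. A match describes the letters of the window and is not evidence of binding.

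Genes were kept where 1 or both libraries reached an FPKM of 1, which left 18510, and of these 3.63% were 2-fold or more lower in bts-1 and 1.92% 2-fold or more higher. Of the 102 resistance genes, 100 passed that minimum, and 10 of these were at least 2-fold lower and 0 at least 2-fold higher. Their median log2 ratio was -0.05 against 0.04 for all genes, the quartiles were -0.43 and 0.18 against -0.21 and 0.27, and 56 of 100 ratios were below 0 against 45.1% of all genes. The medians thus lay close together, and the lower quartile was farther from that of all genes than the upper one. The counts changed with the rule used. At 1.5-fold, 19 members were lower and 6 higher, against 9.32% and 7.53% of all genes. With an FPKM minimum of 5, 7 were lower and 0 higher (3.28% and 1.40% of all genes), and with a pseudocount of 0.1 in place of 1, 14 were lower and 4 higher (5.39% and 3.97%). The members that missed the minimum were AT5G40090, at 0.91 in Col-0 and 0.79 in bts-1, and AT3G04220, at 0.98 in Col-0 and 0.15 in bts-1, the lowest value found in that library. No fold is given for the latter.

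**Figure D1:**
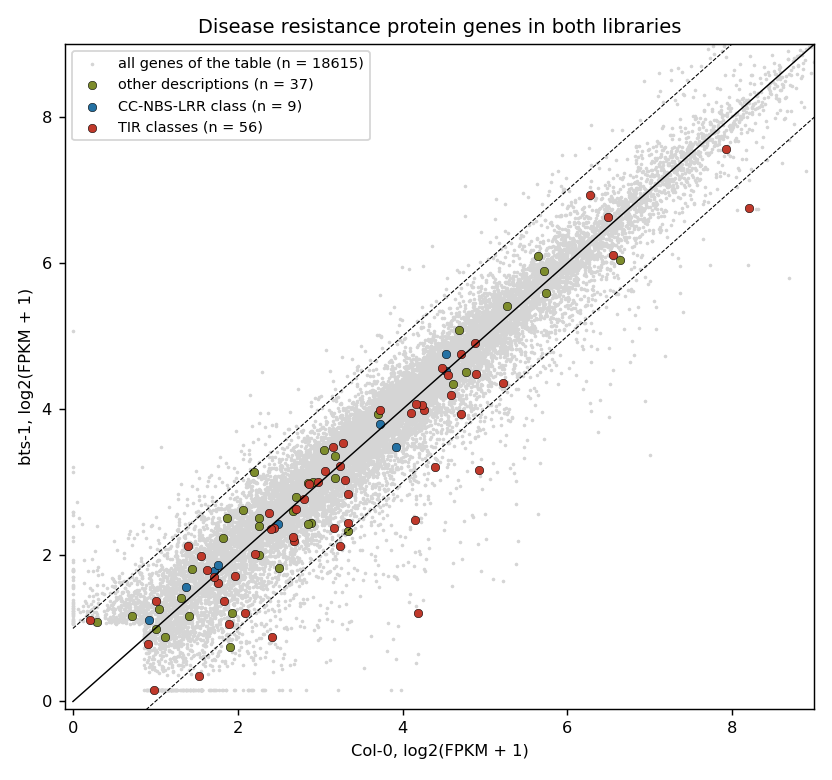
Level in bts-1 against level in Col-0, both as log2(FPKM + 1), for the 102 disease resistance protein genes by class and for all genes in grey. The solid line marks equal levels, the dashed lines a log2 ratio of -1 and 1, and both axes end at 9. The points below the lower dashed line are mostly TIR genes, with AT1G66090 the farthest at 4.19 and 1.21.

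The TIR classes held 8 of the 10 lower genes. Of 54 TIR class genes that passed the minimum, 8 were at least 2-fold lower (14.8%, against 3.63% of all genes). In the same class 37 had a ratio below 0 (68.5%, against 45.1% of all genes). The median log2 ratio was -0.16, which was -0.08 without the genes of chromosome 3. None of the 9 CC-NBS-LRR genes passed 2-fold, but 9 genes are too few to set apart from a share of 3.63%. Their median was 0.08, and their ratios lay between -0.44 for AT1G62630 and 0.23 for AT1G63360. Among the 37 other genes 2 were at least 2-fold lower and the median was 0.10. Grouped by annotated domains instead, 53 genes with TIR and NB-ARC domains had 8 lower members and a median of -0.15. The 33 with NB-ARC and no TIR had 1 lower member and a median of 0.07. The difference between classes was not tested, since there is 1 library per genotype.

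**Figure D2:**
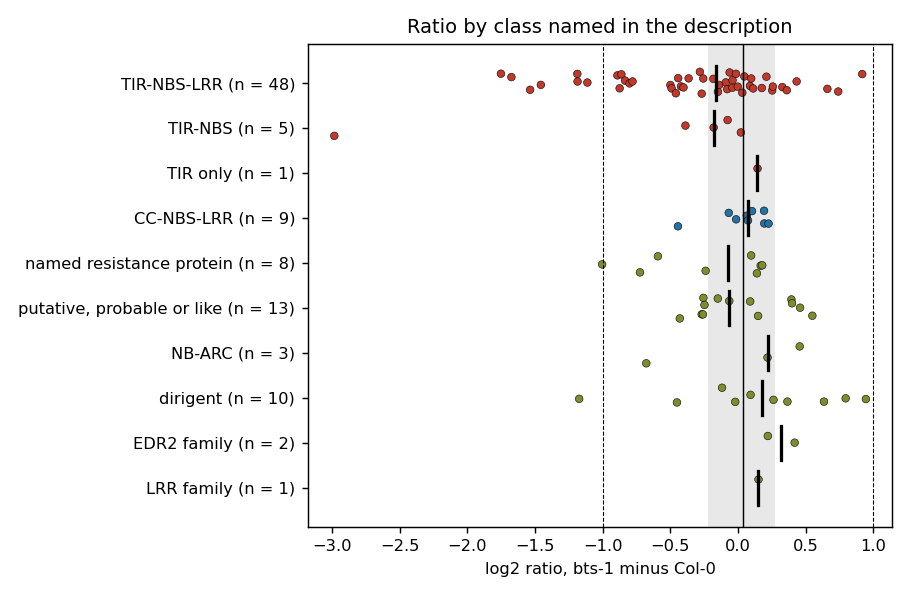
Log2 ratio (bts-1 minus Col-0) of the 100 genes that passed the minimum, by class named in the description, with 1 point per gene and a black bar at each class median. The grey band spans the quartiles of all genes and the line in it their median. The 48 TIR-NBS-LRR genes extend from -1.75 to 0.92 and the 9 CC-NBS-LRR genes from -0.44 to 0.23. Other receptors without a TIR domain are in further rows.

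The largest difference was that of AT1G66090, a TIR-NBS gene on chromosome 1. It stood at 4.19 in Col-0 and 1.21 in bts-1, a log2 ratio of -2.98, or an FPKM of 17.2 against 1.31. The other 4 genes of its class had ratios between -0.39 and 0.02. AT5G58120, a TIR-NBS-LRR gene, stood at 4.92 in Col-0 and 3.17 in bts-1 (log2 ratio -1.75). AT5G41740 and AT5G41750, which follow each other on chromosome 5 in the same direction, were both lower. The first stood at 4.15 and 2.48 (log2 ratio -1.67) and the second at 2.42 and 0.88 (log2 ratio -1.54). Their coding sequences are identical at 89.8% of the bases of the shorter one, and their upstream windows at 54.0%.

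AT3G44630 belongs to the RPP1 region of chromosome 3, which carries receptors for the downy mildew pathogen. It stood at 8.21 in Col-0 and 6.75 in bts-1 (log2 ratio -1.46), the highest listed level of all resistance genes in wild type. Rescaled by exon lengths these levels became 4.68 and 3.31, with a ratio of -1.37, so its rank among the members rests on the chromosome 3 values. Other genes of that region were nearer 0. RPP1 (AT3G44480) stood at 7.93 and 7.57 (log2 ratio -0.36), levels that became 4.35 and 4.01 rescaled. AT3G44670 stood at 6.55 and 6.11 (log2 ratio -0.44), which became 5.27 and 4.84. AT3G44400 stood at 3.34 and 2.45 (log2 ratio -0.89, or -0.52 rescaled). Of these 4 genes, AT3G44630 is the 1 with a ratio past -1.

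The remaining lower TIR genes were nearer the 2-fold line. AT4G19520 stood at 4.39 in Col-0 and 3.20 in bts-1 (log2 ratio -1.19), AT1G56520 at 3.24 and 2.13 (log2 ratio -1.11), and AT4G14370, a weakly expressed gene, at 1.53 and 0.35 (log2 ratio -1.18). The 2 lower members outside the TIR classes are of different kinds. ADR1 (AT1G33560), a helper NLR that relays the signal of other receptors, stood at 3.34 and 2.34 (log2 ratio -1.003), just past the line. The dirigent-type gene AT1G58170 stood at 1.91 and 0.74 (log2 ratio -1.17). The next gene by ratio, AT3G44400 at -0.89, did not reach -1, although its FPKM of 9.11 against 4.45 differed by more than 2-fold. With a pseudocount of 0.1 it joined the lower genes, as did AT1G56540, AT3G25510 and RPS2. A pseudocount of 5 in place of 1 left 4 lower genes, AT1G66090, AT3G44630, AT5G58120 and AT5G41740, and 0 higher, against 1.37% and 0.546% of all genes.

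**Figure D3:**
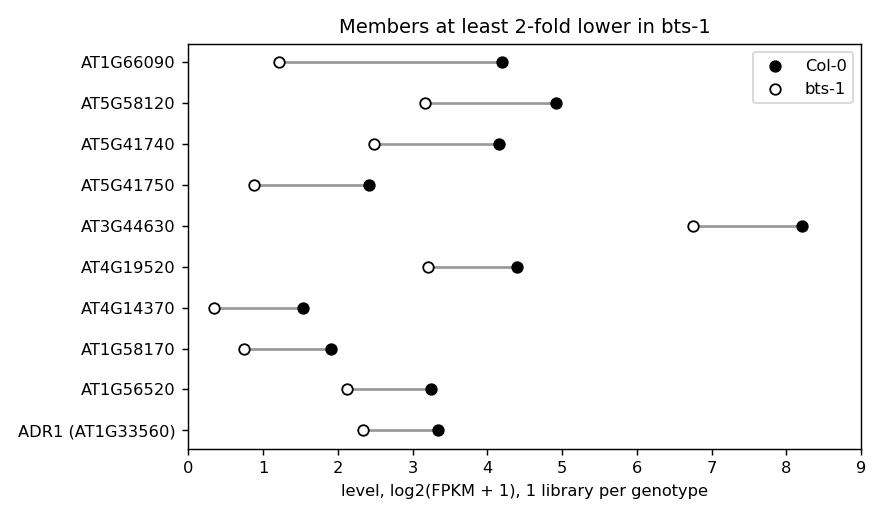
Levels as log2(FPKM + 1) of the 10 resistance genes at least 2-fold lower in bts-1, ordered by log2 ratio, with Col-0 as filled and bts-1 as open circles. AT1G66090 spans 4.19 to 1.21. AT3G44630 lies far to the right of the others at 8.21 and 6.75, levels that are uncertain as for all chromosome 3 genes.

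No resistance gene was 2-fold higher in bts-1 on the log2(FPKM + 1) scale. The highest ratio was that of AT4G11190, a dirigent gene, at 2.20 in Col-0 and 3.14 in bts-1 (log2 ratio 0.95). The TIR-NBS-LRR gene AT5G38340 followed at 0.20 and 1.12 (log2 ratio 0.92) and the dirigent gene AT3G24020 at 0.30 and 1.09 (log2 ratio 0.80), both near the low end of the table. AT5G51630, a TIR-NBS-LRR gene, stood at 1.39 and 2.13 (log2 ratio 0.74). These are the 4 genes that passed 2-fold with a pseudocount of 0.1, at log2 ratios of 1.11, 2.35, 1.91 and 1.02 in the order named. The 10 dirigent genes as a group had a median of 0.18 and ratios from -1.17 to 0.95, the widest spread among the descriptions outside the TIR classes. EDR2 (AT4G19040) and its relative AT5G45560 had log2 ratios of 0.22 and 0.42.

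Among the most abundant resistance genes outside chromosome 3, 1 of 6 differed by more than 1.5-fold in each direction. Of all genes, 9.32% were at least 1.5-fold lower and 7.53% higher. AT1G61100, the gene described as TIR class with no TIR domain in the annotation, was the highest at 6.49 in Col-0 and 6.63 in bts-1. AT4G19530, a TIR-NBS-LRR gene, stood at 6.27 and 6.93 (log2 ratio 0.66). AT1G61190 stood at 5.74 and 5.59, and RPP8 (AT5G43470), a CC-type receptor for downy mildew, at 5.72 and 5.89. AT5G48620, a relative of RPP8, stood at 5.27 and 5.42. WRR4 (AT1G56510), which gives resistance to white rust, stood at 5.22 and 4.36 (log2 ratio -0.86).

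Receptors with a known pathogen or function were mostly close to equal in both libraries. Of 28 listed genes, 26 had a row in the table and 15 of these are named as disease resistance proteins there. None of the 26 reached a ratio of -1 or 1, against 3.63% of all genes lower and 1.92% higher. Their median log2 ratio was -0.05. RPS2 (AT4G26090), which detects the cleavage of the host protein RIN4 by a bacterial effector, had the lowest ratio after WRR4. It stood at 1.93 in Col-0 and 1.21 in bts-1 (log2 ratio -0.72), an FPKM of 2.81 against 1.31. With a pseudocount of 0.1 the RPS2 ratio was -1.05, past the line. RPM1 (AT3G07040), which also watches RIN4, stood at 3.18 and 3.36 (log2 ratio 0.18). RPP13 (AT3G46530), a CC-type receptor for downy mildew, stood at 6.63 and 6.04 (log2 ratio -0.59). RPP5 (AT4G16950) stood at 4.88 and 4.91, and LAZ5 (AT5G44870), whose activity causes cell death in acd11 mutants, at 4.10 and 3.95. SOC3 (AT1G17600), DSC1 (AT4G12010), BNT1 (AT5G11250) and ACQOS (AT5G46510) had log2 ratios of -0.14, -0.06, -0.04 and -0.04.

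Listed receptors whose descriptions do not name disease resistance had ratios between -0.44 and 0.42. SNC1 (AT4G16890), whose gain of function causes autoimmunity, stood at 6.38 and 5.94 (log2 ratio -0.44). RPS6 (AT5G46470), which recognises a bacterial effector, was at -0.41, and RPP4 (AT4G16860) at -0.25. ZAR1 (AT3G50950), which forms a resistosome channel, was at -0.26. LOV1 (AT1G10920), which gives sensitivity to the fungal toxin victorin, was at -0.24, and RLM3 (AT4G16990) at 0.16. SUMM2 (AT1G12280), which watches a MAP kinase cascade, was at 0.04 and TAO1 (AT5G44510) at -0.04. Over all 23 NB-ARC genes outside the description rule the median log2 ratio was -0.26. Of them 3 were at least 2-fold lower and 0 higher, against 3.63% and 1.92% of all genes. Those 3 are the short TIR genes AT1G72910, at 3.94 in Col-0 and 1.67 in bts-1 (log2 ratio -2.26), AT1G72900 at 4.14 and 2.55 (log2 ratio -1.59) and AT1G72940 at 4.07 and 3.07 (log2 ratio -1.01). They are named after their values were seen, and like AT1G66090 they carry annotated TIR and NB-ARC domains.

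Neighbouring loci were grouped where resistance or NB-ARC genes lay no more than 5 steps apart in the order of protein-coding genes, a limit set with the values known. This gave 27 groups of 69 genes, which held 53 of the 102 members. In 9 groups every ratio was below 0, in 6 every ratio was above 0 and in 12 both signs occurred. Many groups hold 2 genes, and 45.1% of all genes had a ratio below 0. How often genes that are not neighbours share a sign was not worked out, so these counts do not show that neighbours are alike. At the WRR4 locus of chromosome 1 the 3 genes were alike, with log2 ratios of -0.86 for WRR4, -1.11 for AT1G56520 and -0.83 for AT1G56540. At the locus that begins with AT1G72840 the member AT1G72840 stood at 1.71 in both libraries and the member AT1G72890 had a ratio of -0.08, next to the 3 short TIR genes that were at least 2-fold lower. At the RPP2 locus of chromosome 4 the ratios were 0.05 for AT4G19500, known as RPP2A, -0.08 for AT4G19510, known as RPP2B, -1.19 for AT4G19520 and 0.66 for AT4G19530. AT4G19520 and AT4G19530 are transcribed away from each other and had opposite signs. In the RPP4 and RPP5 array the 6 genes lay between -0.46 for AT4G16960 and 0.25 for AT4G16900.

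Some receptors, RRS1 and RPS4 among them, work as pairs encoded head to head, in which 1 partner senses and the other signals. The grouping held 7 adjacent pairs transcribed away from each other. RRS1 (AT5G45260), which carries a WRKY domain as bait for effectors, stood at 2.70 in Col-0 and 2.80 in bts-1, and its partner RPS4 (AT5G45250) at 3.30 and 3.64, with log2 ratios of 0.10 and 0.34. CSA1 (AT5G17880) and CHS3 (AT5G17890, listed as DAR4) had ratios of 0.33 and 0.42. The paralogous pair of AT5G45060 and AT5G45050 was at -0.09 and 0.03, and SOC3 and CHS1 (AT1G17610) were at -0.14 and -0.28. DSC1 and WRKY19 (AT4G12020) were at -0.06 and -0.32, and AT4G36140 and AT4G36150 at 0.10 and -0.26. Within these pairs the log2 ratios differed by 0.09 to 0.35, whereas AT4G19520 and AT4G19530 differed by 1.85.

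**Figure D4:**
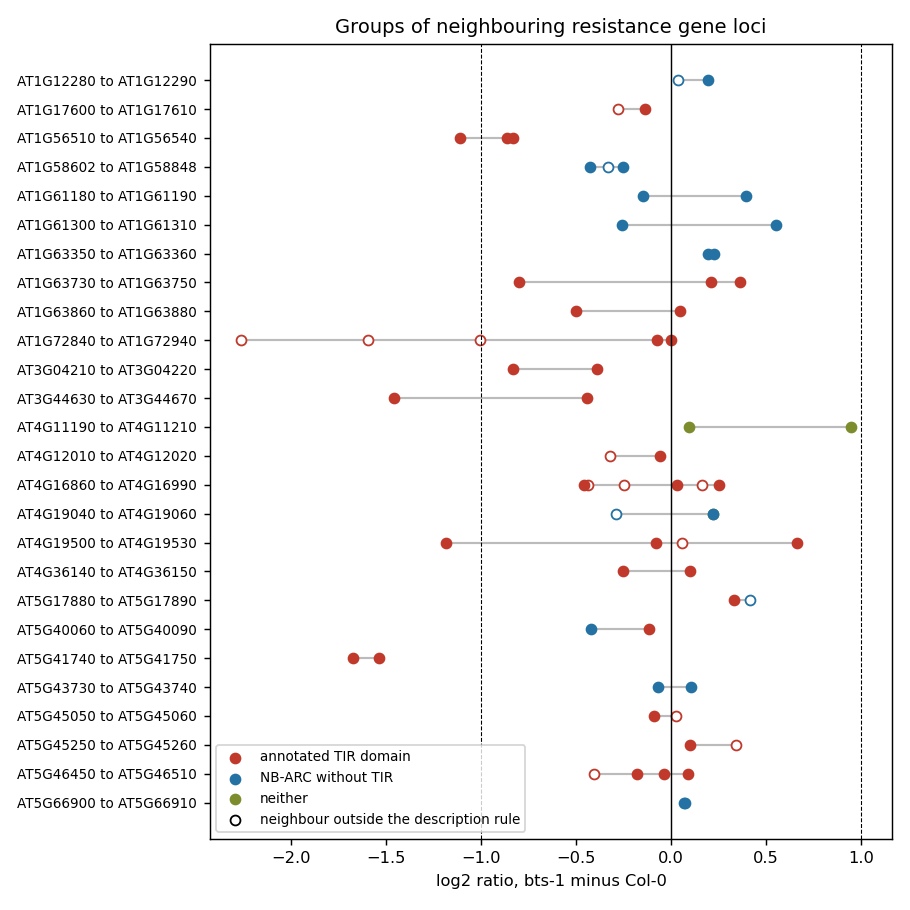
Log2 ratio (bts-1 minus Col-0) of each gene in 26 of the 27 groups of neighbouring loci, with filled points for the disease resistance protein genes and open points for neighbours with an NB-ARC domain outside the description rule. Dashed lines mark -1 and 1. The pair AT5G41740 and AT5G41750 lies at -1.67 and -1.54, and the group from AT4G19500 to AT4G19530 spans -1.19 to 0.66.

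Shared reads limit a few of these values. AT1G58807, AT1G58848 and AT1G59218 match another gene over 100% of their coding sequence at 98% identity or more, so that their reads cannot be assigned with certainty. Their log2 ratios were -0.25, -0.43 and -0.25. No other member matched another gene over as much as 50% of its coding sequence. Neighbours that are alike below that identity did not have to be alike in ratio: AT1G61300 and AT1G61310, identical at 92.7% of bases, had ratios of -0.26 and 0.55, and AT1G61180 and AT1G61190, identical at 92.3%, had 0.40 and -0.15.

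Genes whose products work with the receptors were compared as lists. Of the 5 helper NLRs, 1 was at least 2-fold lower, namely ADR1 as given above, against 3.63% of all genes. ADR1-L2 (AT5G04720) stood at 4.93 and 4.18 (log2 ratio -0.75) and ADR1-L1 (AT4G33300) at 4.62 and 4.35 (log2 ratio -0.27). NRG1.1 (AT5G66900) and NRG1.2 (AT5G66910), the helpers used with SAG101, were at 0.08 and 0.07. By description both are among the 9 CC-NBS-LRR genes. Of the EDS1 family and NDR1, PAD4 (AT3G52430), the lipase-like partner of EDS1 that acts with ADR1, stood at 4.36 in Col-0 and 2.99 in bts-1 (log2 ratio -1.36, or -1.27 rescaled). NDR1 (AT3G20600), a membrane protein needed by several CC-type receptors, stood at 3.002 and 1.989 (log2 ratio -1.01, which became -0.93 and no longer 2-fold when rescaled). EDS1 (AT3G48090) was at -0.33 and SAG101 (AT5G14930) at 0.34. In this list 2 of 4 genes with a row were at least 2-fold lower, against 3.63% of all genes.

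The list of chaperones that fold NLR proteins and of genes that act in their turnover held 2 of 9 genes at least 2-fold lower, against 3.63% of all genes. HSP90.1 (AT5G52640), the heat-inducible form, stood at 5.67 in Col-0 and 3.26 in bts-1 (log2 ratio -2.41) and HSP90.3 (AT5G56010) stood at 6.84 and 5.77 (log2 ratio -1.07). HSP90.4 (AT5G56000) stood at 3.47 and 3.44 (log2 ratio -0.03). Shared sequence was checked for the 102 members only, so reads that the HSP90 genes may share were not examined. HSP90.2 (AT5G56030) was at -0.79 and SGT1A (AT4G23570), a co-chaperone, at 5.42 and 4.49 (log2 ratio -0.92). The co-chaperone genes SGT1B (AT4G11260) and RAR1 (AT5G51700) were at 0.07 and 0.10, and the negative regulators of receptor accumulation SRFR1 (AT4G37460) and CPR1 (AT4G12560) at -0.06 and 0.04. None of the 7 guarded proteins and decoys was past 2-fold, against 3.63% of all genes lower and 1.92% higher. RIN4 (AT3G25070) was at 0.42, MPK4 (AT4G01370) at 0.33, ZED1 (AT3G57750) at -0.31 and PBS1 (AT5G13160) at -0.26. Of 4 homologues of the powdery mildew resistance gene RPW8, HR4 (AT3G50480) had a row and stood at 6.47 and 5.55 (log2 ratio -0.92).

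**Figure D5:**
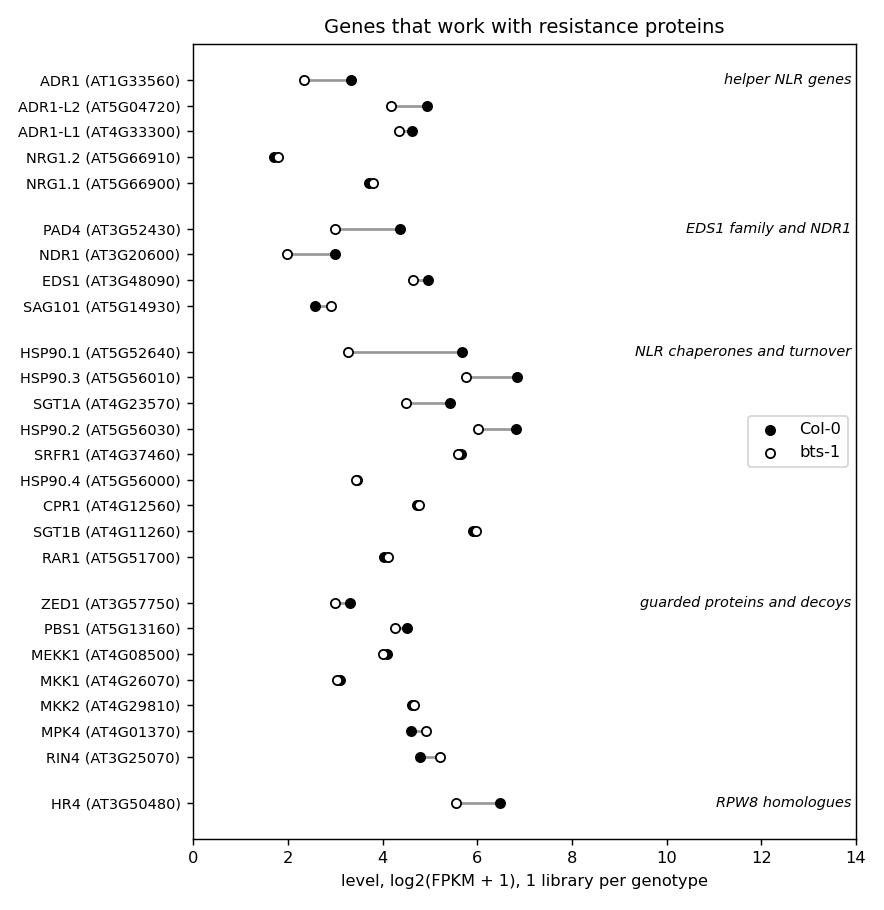
Levels as log2(FPKM + 1) of genes that work with resistance proteins, by list and ordered by log2 ratio, with Col-0 as filled and bts-1 as open circles. ADR1, PAD4, NDR1, HSP90.1 and HSP90.3 are the genes at least 2-fold lower in bts-1 by the deposited values. NRG1.1, NRG1.2, SGT1B and RAR1 have nearly overlapping points. PAD4 and NDR1 lie on chromosome 3, where levels are uncertain, and the NDR1 ratio became -0.93 when rescaled.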

How the data were processed

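The authors deposited 1 table of normalized FPKM with 1 column per genotype, whose values are on a log2 scale and were read as log2(FPKM + 1). CASAVA 1.8.2, cutadapt 1.12, TopHat2 2.1.0, Bowtie, HTSeq 0.9.1 and the build TAIR10 are named in the submitters' processing notes; their order and settings are not given in the sources used here. Sorted, the columns agree within 0.001 at 98.0% of ranks, as after quantile normalization, which no label records and which removes any overall difference in level. Of 18617 rows, 2 without symbol or description were left out. No test was possible; ratios are differences of the deposited log2 values, with a minimum FPKM of 1 in either library and a pseudocount of 1 already inside the values, which understates differences of low genes. The members and lists were chosen with earlier results of these data known. Genes named are the members past 2-fold or at a library's lowest value, the 6 of highest Col-0 level outside chromosome 3, the highest and lowest ratio of each class, members in the list of characterised receptors, members next to a named one, and, from the other lists, those past 2-fold and up to 4 more with the largest ratios; other genes were named after their values were seen. Gene models, domains and upstream sequence come from RefSeq's TAIR10.1, matched by identifier for all 102 members; a build named TAIR10 was used by the authors, and coordinates given are TAIR10.1 only. Coding sequences were compared with BLAST+ 2.17.0 and Biopython 1.88. The counting of genes past 2-fold was checked on Col-0 values shifted by known amounts without noise, which checks the arithmetic only. The alternatives were a pseudocount of 0.1 or 5, an FPKM minimum of 5 or none, genes at the lowest values left out, chromosome 3 rescaled or left out, centring on the nuclear median, narrower membership and a 1.5-fold threshold; classes by annotated domain, all NB-ARC genes and members without shared sequence were added after the data were seen. A planned protein motif was not examined because no protein table was used here. The values of 1 listed receptor are not reported here.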

Additional observations from a re-analysis of the deposited data

How the results depend on the processing

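No paired analysis was possible because each genotype has 1 library, and no library could be left out. The counts of members depended on the pseudocount and the threshold: 14 members were lower and 4 higher with a pseudocount of 0.1 (5.39% and 3.97% of all genes), 4 lower and 0 higher with 5 (1.37% and 0.546%), and 19 lower and 6 higher at 1.5-fold (9.32% and 7.53%). Of 61 recomputed group results, the other 57 kept counts within 1.5 times and medians within 0.1 with the same sign. Several of these could not move past those limits. The 1 member at a lowest value had already missed the minimum, and centring shifts each median by 0.04. No CC-NBS-LRR gene lies on chromosome 3, so its 2 settings left that class unchanged. The median of the TIR classes ranged from -0.08 without chromosome 3 to -0.22 at a minimum FPKM of 5. Of 40 recomputed ratios of the 10 lower members, 34 stayed past 2-fold and 6 did not, all with a pseudocount of 5. Most of the 40 could not fall below 2-fold. A pseudocount of 0.1 and the centring only enlarge these negative ratios, and rescaling leaves genes outside chromosome 3 unchanged. None of these settings could change a sign. The 40 are therefore no measure of stability, and a pseudocount of 5 left 4 of the 10. Read depth is unknown, so the precision of low values cannot be stated.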

Other observations

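The ratios of resistance genes were also set out by level, in 3 ranges of the mean over both libraries. In the lowest range, from 0.66 to 2.34, 3 of 34 genes were at least 2-fold lower and the median log2 ratio was 0.08. In the middle range, from 2.38 to 3.32, it was 4 of 32 and -0.06, and in the highest, from 3.41 to 7.75, 3 of 34 and -0.12. Over all genes of the table within the same ranges of level, 6.60%, 3.65% and 2.47% were at least 2-fold lower.

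The upstream motifs were counted over other genes as well. CGCGTT stood in the 300 upstream bases of 40 of 621 protein-coding genes at least 2-fold lower in bts-1 (6.44%) and of 3 of 241 at least 2-fold higher (1.24%), against 3.27% of all. The W-box forms stood in 41.2% and 28.6% of them, against 31.4% of all. These counts were made after the windows of the resistance genes had been read, and include those genes.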
